A study of Homo sapiens with 8 samples.

Results

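The metallothioneins described here are the 7 human genes MT1E, MT1F, MT1G, MT1H, MT1M, MT1X and MT2A. Their members were chosen by name. Every probe that the array's annotation assigns to these symbols was taken, which gave 9 probes of 58201 on the array, for 7 genes of 43317. MT1E had 3 probes and each of the other genes had 1. Each probe was spotted once, and no spot of these genes carried an outlier flag or was saturated.

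Metallothioneins are small cysteine-rich proteins that bind zinc and copper and also trap toxic metals such as cadmium. Free zinc activates the transcription factor MTF1, which binds metal response elements upstream of these genes and of SLC30A1, the zinc exporter of the plasma membrane. Glucocorticoids, oxidative stress and inflammatory signals are further known inducers. MT2A is usually the most abundant form in epithelial cells, while MT3 is known from brain and MT4 from stratified epithelium.

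The samples are 8 Agilent 2-colour arrays on a single slide, with 1 array for each condition. Untransfected (mock) cells were in Cy3 and transfected cells of the same line in Cy5 throughout. FaDu, a hypopharyngeal squamous cell carcinoma line, received the mature miRNA miR-99a-5p or miR-99a-3p. PC3, a prostate cancer line, received miR-150-5p, miR-150-3p, miR-99a-3p or miR-100-3p. PANC-1, a pancreatic cancer line, received si-FOXQ1-1 or si-FOXQ1-2, siRNAs against the transcription factor FOXQ1. All transfections used Lipofectamine RNAiMAX. No cells that received a control RNA were among these arrays, so that an effect of transfection itself and an effect of the sequence cannot be told apart. Neither can dye and transfection, since the dyes were not swapped.

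The line labels were checked against marker genes in the mock channels. All 5 epithelial markers (KRT8, KRT18, KRT19, EPCAM and CDH1) were well above background in each line. All 5 squamous markers (KRT5, KRT14, KRT6A, TP63 and DSG3) were so in FaDu and none in PC3 or PANC-1. Of 6 prostate genes 4 were measured in every PC3 mock channel, with a summed signal of 38673 to 65183 against at most 670.3 in FaDu and 487.0 in PANC-1, but KLK3 and FOLH1 were not. The pancreas genes did not set PANC-1 apart. Of 6, SOX9, MUC1 and GATA6 were measured in every PANC-1 mock channel, and these with PRSS1 in every PC3 and FaDu mock channel. Their summed signal was 1604 to 1685 in PANC-1, 1078 to 1655 in PC3 and 586.4 to 1076 in FaDu, and PDX1 and CPA1 were not measured throughout in any line. Of 9 genes of other cell types, 3 were measured in every PC3 mock channel and 4 in every mock channel of FaDu and of PANC-1, with CD14 and COL1A1 in all lines. Their summed signal was at most 911.9 in PC3 and 652.3 in FaDu. In PANC-1 it was 1733 to 1865, above that of the pancreas genes.

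For miR-99a-5p, miR-99a-3p and miR-100-3p, RefSeq (GRCh38.p14) gives the mature sequences, shown with the seed, bases 2 to 8, in capitals, since the seed decides which transcripts a miRNA can pair with.
hsa-miR-99a-5p: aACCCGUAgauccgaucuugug
hsa-miR-99a-3p: cAAGCUCGcuucuaugggucug
hsa-miR-100-3p: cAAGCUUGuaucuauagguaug
The seeds of miR-99a-3p and miR-100-3p differ at 1 base, and the whole sequences at 5 of 22.

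The 9 probes lie in the metallothionein cluster of chromosome 16, between the MT2A probe at chr16:56643332-56643391 and the MT1X probe at chr16:56717962-56718021 in the hg19 coordinates of the array files. The MT1E probes lie at chr16:56660853-56660912 (the brightest, first probe below), chr16:56660883-56660942 (the second) and chr16:56660614-56660673 (the third). Family members are alike in sequence, and this bears on what each probe reads. The starts of the MT1X, MT1F and MT1H probes cover the same stretch of their transcripts. Capitals mark the bases that differ from MT1X.
MT1X: tgccaggacagctgtgctctcagatgtaaa
MT1F: tgccaggacaAcCTtTctcCcagatgtaaa
MT1H: tgTcGggacagcCCtgctGtcagatgAaaa
In these 30 bases MT1F differed from MT1X at 5 positions and MT1H at 6. Over their full length the MT1F and MT1X probes shared 49 of 60 bases, with a longest common run of 15. A closer likeness was found at the end of the coding part, where the brightest MT1E probe and a probe for MT1B overlap. Capitals mark the bases that differ from MT1E.
MT1E: gcatcggagaagtgcagctgctgtgcctga
MT1B: TcatcAgagaagtgcCgctgctgtgcctga
These differed at 3 of 30 bases and shared 49 of 59 over the whole overlap. With the MT1L probe the brightest MT1E probe shared 38 of 42 aligned bases, with a longest common run of 19. The array's annotation itself lists transcripts of several genes for some probes, named here through RefSeq. The second MT1E probe is listed for transcripts of MT1E, MT1JP and MT1M, the MT1A probe for MT1A and MT1M, and the MT1HL1 probe for MT1HL1 and MT1H. Whether signals of MT1E and MT1M contain those of relatives was not tested.

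RefSeq promoters (250 bases before to 50 after the start, GRCh38.p14) were given for 3 members, MT2A, MT1H and MT1X. The core of the metal response element was searched as TGCACNC or TGCGCNC on both strands, with overlapping matches counted. It occurred 8 times in the MT2A promoter, 8 times in that of MT1H and 4 times in that of MT1X. Of all 35116 promoters 29.6% held at least 1 match, 0.601% held 4 or more and 0.0199% held 8 or more. Each of the 3 promoters, and that of MT1B, had a match at nearly the same distance from the start, with its first base 53 or 54 bases upstream. These windows are shown on the plus strand with the match in capitals.
MT2A, chr16:56608519-56608548: ggcggggctttTGCACTCgtcccggctctt
MT1H, chr16:56669750-56669779: ggcagggtctcTGCACCCggctccctcccc
MT1X, chr16:56682406-56682435: ggcggggcctcTGCGCCCggccctcttccc
MT1B, chr16:56651822-56651851: ggcggggcctcTGCACCCcaccacctcccc
A match is a description of the sequence and does not show that MTF1 was bound.

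Signals of 7 probes, for MT1E, MT1F, MT1M, MT1X and MT2A, were well above background in all FaDu and PANC-1 channels, and 6 of them in all PC3 channels. MT1H was not well above background in any channel of any array, so that no ratio is given for it. MT1G was above background once, in the mock channel of the FaDu miR-99a-3p array, at a signal of 77.2. The transfected channel there read 30.03 and was not well above background. Against 46.2, the lowest Cy5 signal well above background, MT1G was at least 1.67-fold lower, but against the highest Cy5 signal not called so, 69.5, the ratio was 1.11. On the other FaDu array its mock signal was 6.998 and not well above background. The third MT1E probe was below background in both channels of all 4 PC3 arrays.

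Ratios are given as log2 of transfected over mock, so that 1 stands for a signal ratio of 2. The ± value is the error that the scanner software assigned to the spot, which covers measurement and not the spread between cultures. With 1 array for each condition no test was possible, and a gene was counted as higher or lower at a log2 ratio of 1 or more either way. RNA came from whole cultures, so that a changed share of expressing cells and a changed amount per cell cannot be told apart. The number of arrays limits the precision throughout.

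MT2A was markedly higher in FaDu cells with miR-99a-3p. Its mock signal was 65036 and its transfected signal 311007, a log2 ratio of 2.26 ± 0.29 or 4.78-fold. On that array 82 of the 16482 genes measured in both channels had a higher ratio. With miR-99a-5p the signals were 71268 and 146829.5, a log2 ratio of 1.04 ± 0.23, which lay within its error of the threshold. Both values varied with the mock channel and with dye normalization. After Aquantile normalization between arrays the MT2A mock level (log2 signal) was 15.47 on the miR-99a-3p array and 16.12 on the miR-99a-5p array. Against the mean of these mock levels the log2 ratios became 1.93 and 1.37, and without the intensity-dependent step of dye normalization 2.61 and 1.65. The 100 brightest mock probes of the miR-99a-3p array had a median log2 ratio of -0.04.

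MT2A was much closer to its mock on the other 6 arrays. Among the PC3 arrays it read 0.37 ± 0.21 with miR-99a-3p, 0.09 ± 0.20 with miR-150-3p, -0.31 ± 0.21 with miR-150-5p and -0.40 ± 0.21 with miR-100-3p. In PANC-1 the log2 ratio was 0.46 ± 0.21 with si-FOXQ1-1 and -0.04 ± 0.20 with si-FOXQ1-2. Without the intensity-dependent step of dye normalization these became 1.07, past the threshold, and 0.59, and MT2A in PC3 read from 0.15 to 0.88, so that 5 rather than 4 member ratios in all were at or above 1. The same miRNA, miR-99a-3p, thus went with a log2 ratio of 2.26 in FaDu and 0.37 in PC3. This difference was not tested, since each value rests on 1 array.

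MT1E was measured by 3 probes, which did not give the same ratios. The brightest, whose binding stretch is shown above, read 1.24 ± 0.23 in FaDu with miR-99a-3p, from a signal of 35081 to 82714. On this array the second probe read 0.57 ± 0.21 and the third 0.85 ± 0.25. With miR-99a-5p the order was different, at 0.47 ± 0.21, 0.36 ± 0.21 and 0.86 ± 0.29. In PC3 the first probe lay between -0.42 with miR-100-3p and 0.32 with miR-99a-3p. The second probe had its lowest ratio with miR-150-3p, at -0.64 ± 0.23, where the first read 0.03 ± 0.20. All 3 probes were between 0.33 and 0.43 with si-FOXQ1-1 and between -0.11 and 0.10 with si-FOXQ1-2. Only the first passed the threshold, on the FaDu miR-99a-3p array, and the mean over the probes there was 0.89.

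MT1F was highest on another array than MT2A. Its highest log2 ratio was in PANC-1 with si-FOXQ1-1, at 1.98 ± 0.28, from a mock signal of 223.3 to a transfected signal of 882.4. Only 5 of 16413 genes measured in both channels were higher on that array. With si-FOXQ1-2 the mock signal was 219.5, the transfected signal 320.3 and the ratio 0.55 ± 0.21, so that the mock channels were alike and the transfected channels differed. The other members read from 0.33 to 0.59 with si-FOXQ1-1 and from -0.21 to 0.21 with si-FOXQ1-2. In FaDu MT1F was 0.79 ± 0.22 with miR-99a-5p and 0.75 ± 0.22 with miR-99a-3p. Across the PC3 arrays it ran from -0.32 with miR-100-3p to 0.40 with miR-150-5p.

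MT1X and MT1M stayed within the threshold on all 8 arrays. MT1X was 0.91 ± 0.22 in FaDu with miR-99a-5p and 0.58 ± 0.21 with miR-99a-3p, the reverse of the order for MT2A. It was the only member above 0 in PC3 with miR-100-3p, at 0.31 ± 0.21, while the other 4, by their brightest probes, lay between -0.45 and -0.32. MT1M was 0.43 ± 0.21 with miR-99a-5p and 0.74 ± 0.22 with miR-99a-3p in FaDu. Its lowest ratios were in PC3, -0.45 ± 0.23 with miR-100-3p and -0.32 ± 0.23 with miR-150-3p.

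**Figure D1:**
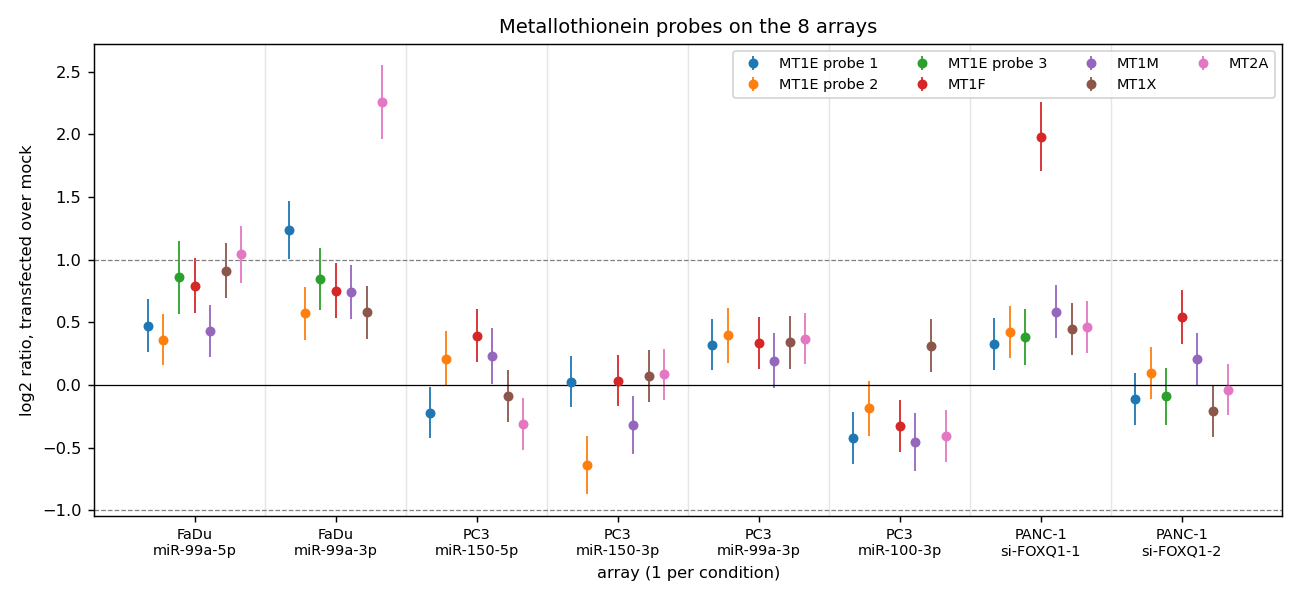
Log2 ratio of transfected over mock signal (vertical axis) on each of the 8 arrays (horizontal axis), for the 7 metallothionein probes well above background in both channels. Points are single spots, bars are the spot error given by the scanner software and dashed lines mark log2 ratios of 1 and -1; MT2A with miR-99a-3p in FaDu (2.26) and MT1F with si-FOXQ1-1 in PANC-1 (1.98) stand highest.

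The group median lay furthest above that of all genes on the FaDu arrays. On the FaDu miR-99a-5p array the 5 members detected had a median log2 ratio of 0.79, against -0.03 over 19282 detected genes, and all 5 were above 0. With miR-99a-3p in FaDu the median of 6 members was 0.75 against -0.03 over 19184 genes. Here MT2A and MT1E passed the threshold upwards and MT1G, whose transfected signal was not measured, downwards. In PANC-1 the median of 5 members was 0.46 with si-FOXQ1-1 and -0.04 with si-FOXQ1-2, both against a median of all genes between -0.02 and -0.01.

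In PC3 the medians were 0.33 with miR-99a-3p, 0.04 with miR-150-3p, -0.09 with miR-150-5p and -0.40 with miR-100-3p, each over 5 members. No member passed the threshold on a PC3 array. With miR-99a-3p all 5 were above 0, from 0.19 to 0.37, where all detected genes had a median of 0.02 and a 75th percentile of 0.34. With miR-100-3p 4 of 5 were below 0, where all detected genes had a median of -0.02 and a 25th percentile of -0.25. Whether the 2 miRNAs differ was not tested, since each value rests on 1 array. Without the intensity-dependent step of dye normalization the member medians were still above 0 with miR-99a-3p and below 0 with miR-100-3p, but MT2A with miR-100-3p turned from -0.40 to 0.15. The median with miR-150-5p turned from -0.09 to 0.28, and MT2A there from -0.31 to 0.28. In the PANC-1 arrays the median moved to 0.68 with si-FOXQ1-1 and to 0.34 with si-FOXQ1-2.

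The counts can be read against all detected genes. At least 1 on the log2 scale was reached by 1 of 5 members with miR-99a-5p in FaDu, where 0.851% of all genes did so, and by 2 of 6 with miR-99a-3p, where 8.25% did. With si-FOXQ1-1 it was 1 of 5 against 0.905% of all genes. It was 0 of 5 on each of the other arrays, where the background was 0.412% with si-FOXQ1-2, 0.664% with miR-150-5p, 2.69% with miR-150-3p, 4.23% with miR-99a-3p and 0.987% with miR-100-3p. A log2 ratio of -1 or less was reached by 1 of 6 members with miR-99a-3p in FaDu, against 9.37% of all genes. No member reached it elsewhere, where 4.86% of all genes did with miR-99a-5p, 4.49% with miR-150-5p, 6.68% with miR-150-3p, 7.39% with miR-99a-3p in PC3, 3.34% with miR-100-3p, 3.31% with si-FOXQ1-1 and 3.29% with si-FOXQ1-2.

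**Figure D2:**
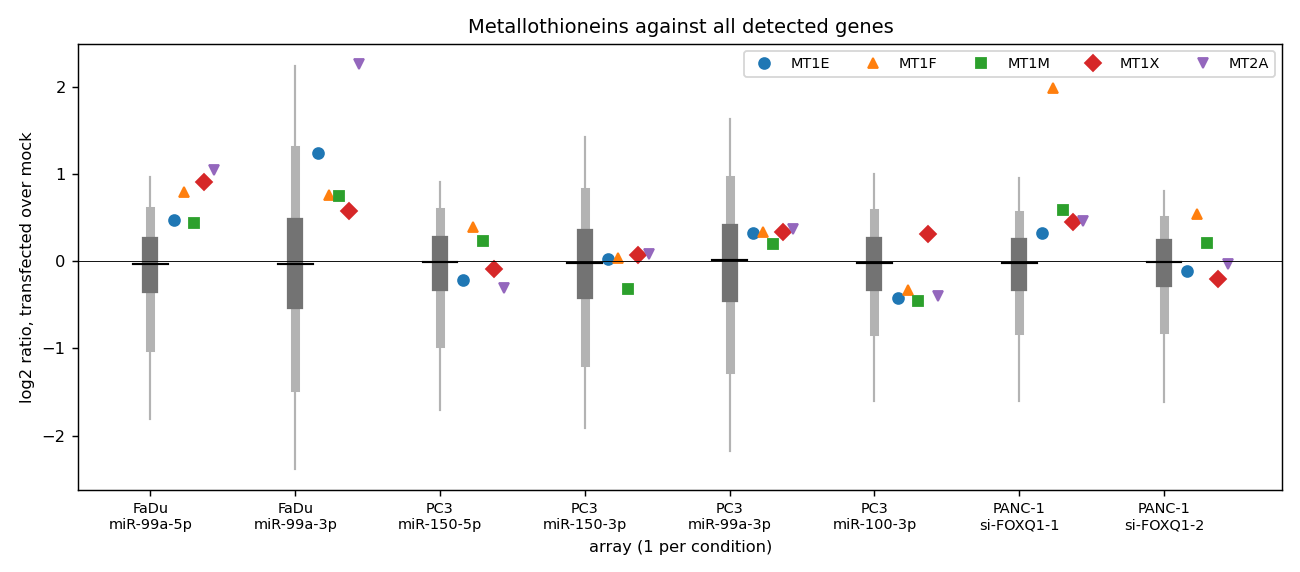
Log2 ratio of transfected over mock signal (vertical axis) for the 5 metallothioneins measured in both channels of every array (symbols, brightest probe of each gene) beside all genes detected on the same array (grey; thick bar 25th to 75th, medium bar 5th to 95th, thin line 1st to 99th percentile, black line median). In FaDu with miR-99a-3p MT2A lies just above the 99th percentile of 2.24, and in PANC-1 with si-FOXQ1-1 MT1F lies above that of 0.95.

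The array carried 8 further metallothionein genes of the 12 listed, with 10 probes. The 5 probes for MT1A, MT1B, MT1HL1 and MT1L gave strong signals on every array. With miR-99a-3p in FaDu they read from 1.22 to 1.68, all below MT2A and 4 of them above the brightest MT1E probe. With miR-99a-5p in FaDu they read from 0.48 to 0.74. All 5 were above 0 with miR-99a-3p in PC3 (0.17 to 0.35) and with si-FOXQ1-1 (0.14 to 0.37), and all 5 below 0 with miR-100-3p (-0.50 to -0.31) and si-FOXQ1-2 (-0.33 to -0.17). The median of all detected genes lay between -0.02 and 0.02 on these arrays. The MT1A probe is also listed for MT1M and the MT1HL1 probe for MT1H, while the MT1L probe and 1 MT1B probe resemble the brightest MT1E probe. The other MT1B probe is listed for MT1B alone, but shared 33 of 36 aligned bases with the MT1HL1 probe. Which transcripts they read was not tested, so that the 5 cannot be taken as independent measurements. MT3 was measured on every array and departed most from MT2A with miR-99a-3p in FaDu. It read -0.26 ± 0.21 on that array and between 0.08 and 0.37 on the other 7 arrays. With miR-99a-3p in PC3 both MT3 and MT2A read 0.37.

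**Figure D3:**
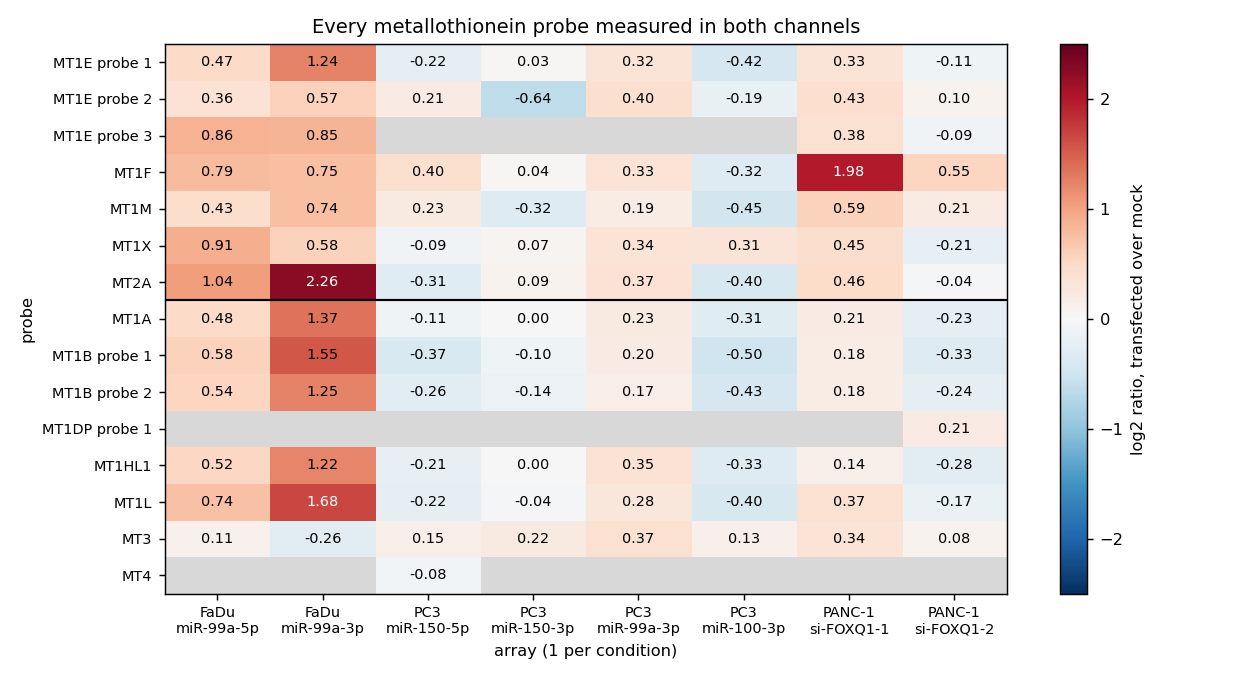
Log2 ratio of transfected over mock signal (colour and printed value) for each metallothionein probe (rows) on each array (columns), with the 7 member probes above the black line and other family genes below it. Grey cells were not well above background in both channels; in the FaDu miR-99a-3p column 6 of the rows for MT1E, MT1A, MT1B, MT1HL1 and MT1L exceed 1, while MT3 reads -0.26.

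Metallothionein levels in mock cells differed markedly between the lines. Levels are log2 Cy3 signals after Aquantile normalization, given as mean ± SD over 4 PC3, 2 FaDu and 2 PANC-1 mock channels, and they were compared only within a probe. Adjusted p-values are from limma, with Benjamini-Hochberg adjustment over 28353 probes. The labels do not say whether the mock channels of a line are separate cultures, so that p-values measure only the spread between channels, which may be technical. The 4 PC3 channels fell into pairs, miR-150-5p with miR-150-3p and miR-99a-3p with miR-100-3p. The median difference between channels was 0.080 and 0.095 (log2) within these pairs and 0.164 to 0.171 between them, while it was 0.113 for FaDu and 0.086 for PANC-1.

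On the probes named for them, MT1E and MT1M were lower in PC3 than in both other lines. By its brightest probe MT1E had a level of 12.34 ± 0.09 in PC3, 14.74 ± 0.08 in FaDu and 15.89 ± 0.05 in PANC-1. FaDu was 5.28-fold above PC3 (log2 difference 2.40, SE 0.08, limma adjusted p = 3.18e-07), and PANC-1 11.8-fold (3.56, SE 0.08, limma adjusted p = 8.10e-08). The second MT1E probe gave the same order with a far wider gap, 7.37 ± 0.13 in PC3, 13.93 ± 0.05 in FaDu and 14.46 ± 0.01 in PANC-1, or 94.5-fold and 137.1-fold above PC3. The third probe was dim in every PC3 mock channel and passed the filter only through FaDu and PANC-1, so that it gives no separate support for this order. Against the mean of the lowest PC3 mock levels well above background, FaDu was 4.84-fold and PANC-1 9.17-fold higher. Some PC3 signals not called so were above those lowest levels, so that these folds are not strict lower bounds. MT1M had a level of 7.20 ± 0.21 in PC3, 11.49 ± 0.0047 in FaDu and 11.92 ± 0.06 in PANC-1, hence 19.6-fold and 26.5-fold above PC3. The first and second MT1E probes overlap by 30 bases of the genome, so that their fold differences of 5.28 and 94.5 concern adjoining sequence. However, the second is also listed for transcripts of MT1JP and MT1M, so that its fold differences may not be those of MT1E alone. The first shared 38 of 42 aligned bases with the MT1L probe. Which transcripts each probe read was not tested.

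MT1X was also low in PC3, at 8.50 ± 0.09, but did not differ detectably between FaDu (10.61 ± 0.0023) and PANC-1 (10.60 ± 0.06). FaDu was 4.33-fold and PANC-1 4.31-fold above PC3, while their own log2 difference was 0.0055 with a 95% confidence interval of -0.20 to 0.21 (limma adjusted p = 0.957). MT2A was highest in PANC-1, at 17.25 ± 0.20, against 16.08 ± 0.13 in PC3 and 15.80 ± 0.46 in FaDu. PANC-1 exceeded PC3 2.26-fold (limma adjusted p = 0.00122) and FaDu 2.74-fold (limma adjusted p = 8.30e-04). FaDu and PC3 did not differ beyond their spread for MT2A, with a log2 difference of -0.28 and an interval of -0.73 to 0.18 (limma adjusted p = 0.220). The call depended on 1 channel, since without the FaDu miR-99a-5p mock the log2 difference was -0.61 (limma adjusted p = 0.0146), and without the FaDu miR-99a-3p mock it was 0.049.

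MT1F alone had its highest level in PC3. It was 9.26 ± 0.25 there, 8.66 ± 0.05 in FaDu and 8.04 ± 0.07 in PANC-1. FaDu was lower than PC3 by 1.51-fold (limma adjusted p = 0.0101) and PANC-1 by 2.32-fold (limma adjusted p = 3.51e-04). The call against FaDu was lost without the FaDu miR-99a-3p mock (limma adjusted p = 0.0574) and with close mock channels averaged (limma adjusted p = 0.102).

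In counts, 6 member probes were well above background in all 8 mock channels. The third MT1E probe entered the test only through FaDu and PANC-1, where it was high, and is left out of these counts. Of the 6, 4 were higher in FaDu than in PC3 and 1 was lower, where 42.4% and 35.4% of all 20443 probes so measured were. PANC-1 exceeded PC3 on 5 probes and was lower on 1, against 37.5% and 32.5%. FaDu exceeded PANC-1 on 1 probe and was lower on 4, against 36.7% and 35.1%. The median log2 difference of the 6 probes was 2.26 for FaDu over PC3, 2.83 for PANC-1 over PC3 and -0.48 for FaDu over PANC-1, against 0.11, 0.06 and 0.05 over all 20443. The probes share genes and sequence, so that these counts are not counts of independent genes. Averaging the close channels left 2 probes lower and none higher in FaDu than in PANC-1.

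**Figure D4:**
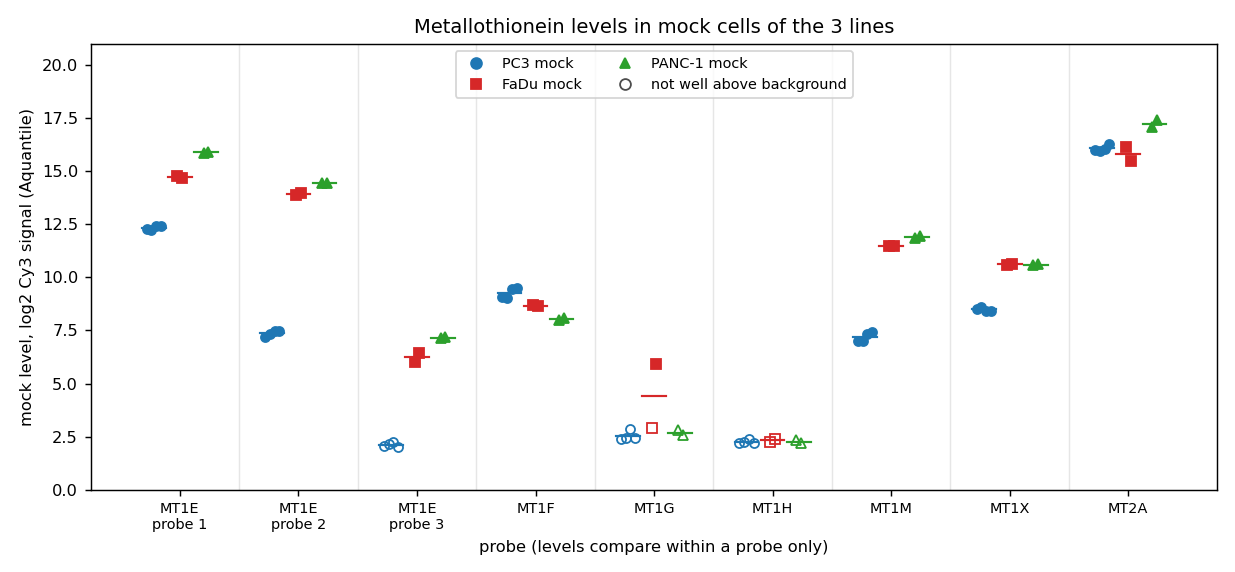
Mock level (vertical axis, log2 Cy3 signal after Aquantile normalization) of the 9 metallothionein probes in PC3 (4 channels), FaDu (2) and PANC-1 (2), with the mean of each line as a short line and open symbols where the signal was not well above background. PC3 lies lowest on the MT1E, MT1M and MT1X probes, and highest for MT1F (9.26); levels are comparable within a probe and not between probes.

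Genes that act on zinc and other metals gave mixed ratios. MTF1, the zinc sensor, read 0.87 ± 0.22 with miR-99a-3p in FaDu and 0.75 ± 0.22 with it in PC3, and from -0.32 to 0.33 on the other 6 arrays. SLC30A1, which like MT2A is an MTF1 target, went the other way from MT2A in FaDu with miR-99a-3p, at -1.21 ± 0.24 from a signal of 819.3 to 354.3. With miR-99a-5p in FaDu SLC30A1 read 0.21 ± 0.21, with MT2A at 1.04. In PC3 with miR-99a-3p it was higher, at 1.33 ± 0.27, with MT2A at 0.37. With miR-100-3p SLC30A1 read 0.94 ± 0.28 and MT2A -0.40. SLC30A3, another exporter of the same family, read 1.93 ± 0.38 in PC3 with miR-99a-3p, from a mock signal of 33.9.

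Over the 8 arrays 7.70% of the values of all detected genes passed the threshold either way, against 10.9% of 55 values for zinc exporters, 9.68% of 93 for zinc importers and 4.84% of 124 for metal and copper handling. Of the 10 zinc exporter genes 6 to 7 were detected per array. With miR-99a-3p 1 was lower in FaDu and 2 were higher in PC3, 2 were lower with miR-150-5p and 1 was higher with miR-100-3p. SLC30A3 was among those counted with miR-150-5p (-1.35 ± 0.56) and miR-100-3p (1.52 ± 0.49). On each of these arrays 1 of its channels was not well above background. Zinc importers, 11 to 13 of 14 detected, passed the threshold 9 times over the 8 arrays. With miR-99a-3p in FaDu SLC39A10 read 1.79 ± 0.33 and SLC39A8 1.09 ± 0.23, while SLC39A14, which brings in zinc and iron, read -1.64 ± 0.25. SLC39A8 was also at 1.03 ± 0.30 with si-FOXQ1-1, and SLC39A10 at -1.06 ± 0.25 with miR-99a-3p in PC3. Among 16 genes of metal and copper handling, the iron exporter SLC40A1 was higher on 3 PC3 arrays, at 1.27 ± 0.30 with miR-150-5p, 1.71 ± 0.31 with miR-150-3p and 1.28 ± 0.28 with miR-99a-3p. The ferritin chains were lower in places, FTL at -1.13 ± 0.23 with miR-99a-3p in FaDu and FTH1 at -1.53 ± 0.25 with miR-150-3p.

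Of the 17 stress genes induced by metals and heat, more were lower than higher on the array where MT2A was highest. With miR-99a-3p in FaDu 2 of 16 detected were higher and 6 lower, where 8.25% and 9.37% of all genes were. Over the 8 arrays 8.27% of the values of this list passed the threshold either way, against 7.70% of the values of all genes. HMOX1, the heme oxygenase induced by cadmium and oxidative stress, read -3.04 ± 0.35, from 62982 to 7681. HSPA6, a strictly inducible heat shock gene, was at least 10.8-fold lower there against the lowest Cy5 signal well above background and 7.17-fold against the highest not called so, but read 1.98 ± 0.27 with miR-99a-5p. CRYAB, a small heat shock protein, read 1.98 ± 0.29 in PC3 with miR-99a-3p. On the other 5 arrays at most 1 of these genes passed the threshold.

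**Figure D5:**
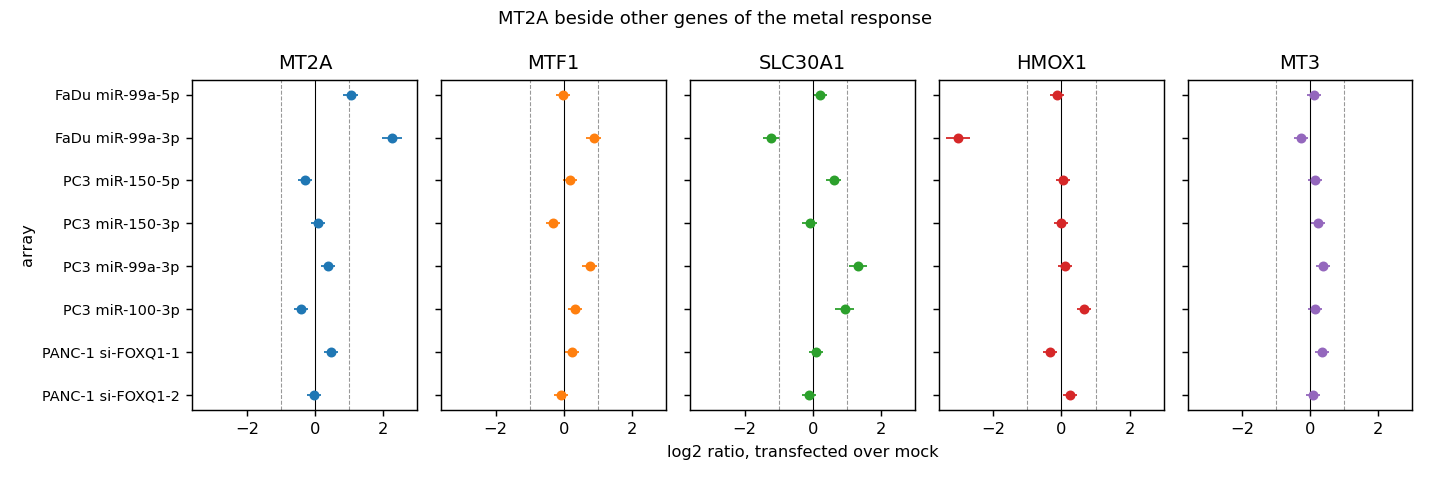
Log2 ratio of transfected over mock signal (horizontal axis) on each array (rows) for MT2A, MTF1, SLC30A1, HMOX1 and MT3, with points for the brightest probe, bars for the spot error and dashed lines at 1 and -1. In FaDu with miR-99a-3p MT2A stands at 2.26 while SLC30A1 is at -1.21 and HMOX1 at -3.04.

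Genes of other known inducers of metallothioneins gave mixed values, whose part in the metallothionein ratios was not tested. Of 14 glucocorticoid-responsive genes 11 were detected with miR-99a-3p in FaDu, where 2 were higher and 3 lower, against 8.25% and 9.37% of all genes. There TSC22D3 read -2.33 ± 0.30 and the phosphatase gene DUSP1 -1.92 ± 0.27, while ANGPTL4 read 2.81 ± 0.33. ANGPTL4 was also at 2.16 ± 0.29 with miR-99a-5p, 1.44 ± 0.24 with miR-150-3p and -1.64 ± 0.25 with si-FOXQ1-2. Of 12 interferon-responsive genes 6 of 11 detected were higher with miR-99a-3p in FaDu (median 1.10), where 8.25% of all genes were. With miR-150-3p in PC3 it was 10 of 11 (median 2.46), against 2.69% of all genes. With miR-150-3p IFI6 read 3.30 ± 0.37, MX1 3.12 ± 0.35 and IFI44L 3.096 ± 0.35, while MT2A on the same array read 0.09. With si-FOXQ1-1 MX1 read 2.00 ± 0.28, but the list had a median of 0.06, with 2 of 11 higher and 1 lower, and IFI44L read 0.09 ± 0.31. Of all genes 0.905% were higher and 3.31% lower on that array. Over the 8 arrays 19.2% of 99 glucocorticoid-list values and 25.3% of 87 interferon-list values passed the threshold either way, against 7.70% for all genes. Marker genes also moved on the FaDu miR-99a-3p array. Of the squamous markers 4 of 5 were lower, among them KRT6A at -2.83 ± 0.33 and DSG3 at -1.94 ± 0.27. Of the genes of other cell types 2 of 4 detected were higher, with a median of 0.99, namely the monocyte marker CD14 at 2.54 ± 0.31 (a signal of 386.2 to 2245) and the fibroblast collagen COL1A1 at 1.53 ± 0.28. Their part in the metallothionein ratios was not tested.

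The genes on either side of the cluster on chromosome 16 had medians between -0.11 and 0.09 on the 8 arrays. Of 19 listed neighbours 15 were detected with miR-99a-3p in FaDu, where 2 were higher and 1 lower, against 8.25% and 9.37% of all genes. HERPUD1, a gene of endoplasmic reticulum stress, was the lower, at -3.37 ± 0.38. It was also lower with both siRNAs, at -1.15 ± 0.23 and -1.40 ± 0.24. GNAO1, a G protein subunit, read 1.72 ± 0.27 with miR-99a-3p in FaDu. CX3CL1, a chemokine, was lower with si-FOXQ1-1 (-1.13 ± 0.23) and si-FOXQ1-2 (-1.02 ± 0.23).

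The genes most like the metallothioneins over the 8 arrays were CBR1, WDR20, NDRG2, SCHIP1 and PLEK2. Likeness was the root mean square difference from the mean log2 ratio of MT1E, MT1F, MT1M, MT1X and MT2A, over 13238 other genes measured in both channels of every array. CBR1, a carbonyl reductase, differed by 0.18, WDR20 by 0.20, NDRG2 by 0.23, SCHIP1 by 0.23 and PLEK2 by 0.23, where the median gene differed by 0.65. CBR1 read 0.60 with miR-99a-5p and 1.09 with miR-99a-3p in FaDu, where the mean of the members was 0.73 and 1.11. NDRG2 read 1.44 with miR-99a-3p in FaDu. These 5 genes were picked for this likeness among many, so that the values describe the choice.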

How the data were processed

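RNA of mock cells (Cy3) and transfected cells (Cy5) was compared on 8 Agilent 2-colour arrays. Per the file headers, the authors used version 10.7.3.1 of Agilent's Feature Extraction. The deposited intensity values were background-corrected and dye-normalized, with surrogates for signals not above background, and the deposited log10 ratios come from the same run. They were turned to the log2 scale here. Control spots and outlier-flagged spots were left out (81 to 178 gene spots per array). A gene was its brightest probe, and detected meant well above background in at least 1 channel. Mock channels were normalized with Aquantile and compared with limma 3.58.1 in R 4.3.3, called at an adjusted p of 0.05 among probes well above background in every mock channel of at least 1 line. On simulated FaDu and PC3 values of 28327 probes this test called 75 of 100 probes changed by 1 (log2), 100 of 100 changed by 2 and 8 unchanged probes. The simulated channels were independent, with 1 SD for every probe taken from the PC3 channels. The real PC3 channels fell into pairs, so that these counts do not give the error rate in the data. Tables and plots were made with Python 3.11.15.

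Groups came from the sample labels. The members and lists were chosen with earlier results of these data known. Named were every member probe, MTF1 and SLC30A1, at most 3 genes of each other list with the largest log2 ratio of 1 or more either way in both channels, and the 5 genes most like the members. Values of marker genes were given as a check of the labels. Alternatives covered background and dye normalization, filters, probe choice, centring, thresholds and left-out channels. The last alternatives were added after seeing the data, namely no intensity-dependent dye normalization, the mean mock level of a line, and averaging of close mock channels.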

Additional observations from a re-analysis of the deposited data

How the results depend on the processing

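No paired analysis was possible because only a single array was made per condition. Over the 8 arrays 4 member ratios were at or above 1 and 1 at or below -1. With a threshold of 0.58 the first count was 9 and with 2 it was 1. Without intensity-dependent dye normalization it was 5, MT2A with si-FOXQ1-1 reading 1.07 in place of 0.46. The second count was 0 with normexp and loess, with both channels required, with a threshold of 2, without intensity-dependent dye normalization and against the mean mock level of the line. The last of these turned MT1G in FaDu with miR-99a-3p from -1.36 to 0.15, its mock being measured on 1 of 2 arrays. Medians per array moved by less than the spot error in 76 of 80 recalculations. The exceptions were FaDu miR-99a-5p without a filter (0.47, with unmeasured probes at 0) and, without intensity-dependent dye normalization, PC3 miR-150-5p (0.28), PANC-1 si-FOXQ1-1 (0.68) and PANC-1 si-FOXQ1-2 (0.34), for which the cause was not tested.

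In the mock comparison, leaving out each channel in turn gave, of the 6 member probes measured in every mock channel, 4 with FaDu above PC3, 0 to 2 with FaDu below PC3 (0 without the FaDu miR-99a-3p channel, 2 without that of miR-99a-5p), 5 with PANC-1 above PC3, 1 below, 0 to 1 with FaDu above PANC-1 and 3 to 4 below. The FaDu above PANC-1 call is that of MT1F, lost without either FaDu channel or the si-FOXQ1-1 channel, where a lone channel was assumed to vary like the other lines. MT1M between FaDu and PANC-1 (limma adjusted p = 0.0386) was lost without any 1 channel of these lines (0.0841 to 0.142) and without a filter (0.0881). With close mock channels averaged, which leaves fewer values, the counts were 0 with FaDu below PC3, 0 with FaDu above PANC-1 and 2 with FaDu below PANC-1. Differences that were not called changed sign for MT2A between FaDu and PC3 (0.11 with the 75th percentile, -0.61 to 0.049 over the left-out channels) and for MT1X between FaDu and PANC-1 (-0.094 with the 75th percentile, -0.017 with normexp and loess, -0.036 to 0.047 over the left-out channels). The counts over all probes stayed within 1.5 times in 80 of 84 recalculations. The exceptions, all with close mock channels averaged, were 4739 with PANC-1 above PC3, 4173 below, 4641 with FaDu above PANC-1 and 4709 below. Signal over background limits MT1G, MT1H and the third MT1E probe.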

Other observations

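Among the 4 PC3 mock channels no member probe had an outlying value over 6 probes examined. The largest gap was that of MT2A, 0.713 of the range, in the miR-100-3p channel at 16.26 against 15.98 to 16.06 in the others.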
